A study of Haematococcus lacustris with 7 samples.

Results

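The sequences described here are those of the green alga *Haematococcus pluvialis* that were annotated to the chloroplast stroma or the chloroplast envelope. A sequence was a member where a Gene Ontology (GO) term listed for it contained chloroplast stroma, plastid stroma, chloroplast envelope, chloroplast inner membrane or chloroplast outer membrane. A sequence was left out where it also listed a term containing thylakoid or photosy, the shared start of photosynthesis and photosystem. Of 6812 annotated sequences, 134 listed a stroma or envelope term, 39 of these were left out, and 95 were members. Among the 39 left out, 29 listed a thylakoid term and 20 a photosynthesis or photosystem term, with 10 listing both kinds.

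The study followed RNA of *H. pluvialis* after jasmonic acid (JA) or salicylic acid (SA), plant hormones that were added to raise the red carotenoid astaxanthin. The 7 libraries were JA1, JA6 and JA24, sampled 1, 6 and 24 h after 25 mg/L of JA, SA1, SA6 and SA24, sampled at those times after 25 mg/L of SA, and the control N without either hormone. All libraries came from portions of 1 culture of a single strain, with 1 library per condition and therefore no replicates. The table of annotations analysed here describes 1 assembly made from all 7 libraries and holds 0 columns per library, so the members are described by their annotations, and their levels under JA, SA or N are not analysed here.

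The stroma is the fluid inside the inner envelope membrane of the chloroplast, where carbon is fixed and where starch, fatty acids, most amino acids, the precursors of carotenoids and the early intermediates of chlorophyll are made. The envelope is a pair of membranes around it. The outer membrane faces the cytosol, while the inner membrane holds the carriers that pass phosphate, ions, lipids and other metabolites between the stroma and the rest of the cell. Most proteins of both compartments are encoded in the nucleus and imported.

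The label was checked against the other cellular component terms of the members. Of the 95 members, 42 listed no cellular component other than the locations of the rule, 15 listed a further plastid structure such as the stromule, the chromoplast or a starch grain, and 31 listed another compartment of the cell. Both a further plastid structure and another compartment were listed for 7 members. The general term chloroplast, listed for 402 sequences in the table, was listed for 0 members, and chloroplast membrane, listed for 26 sequences, also for 0 members. Of the 39 sequences left out by the rule, 0 listed chloroplast and 1 listed chloroplast membrane. The absence of the term chloroplast is thus not particular to the members and is no check of the label. In the comparisons of shares, the chloroplast-term group stands for the 378 sequences that listed chloroplast and no stroma, envelope, thylakoid or photosynthesis term. The terms were assigned by the authors from protein matches, and no location was measured.

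Chloroplast stroma was listed for 67 members (70.5%), chloroplast envelope for 35 (36.8%), chloroplast inner membrane for 10 (10.5%), chloroplast outer membrane for 3 (3.16%) and plastid stroma for 2 (2.11%). These terms chose the members and are no result. Stroma without an envelope term was found on 48 members, hereafter stroma only, and an envelope or membrane term without stroma on 26, hereafter envelope only. The other 21 members listed both. Among these 21, 16 combined chloroplast stroma with chloroplast envelope, 3 combined stroma with the inner membrane and 2 combined stroma with the outer membrane.

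**Figure D1:**
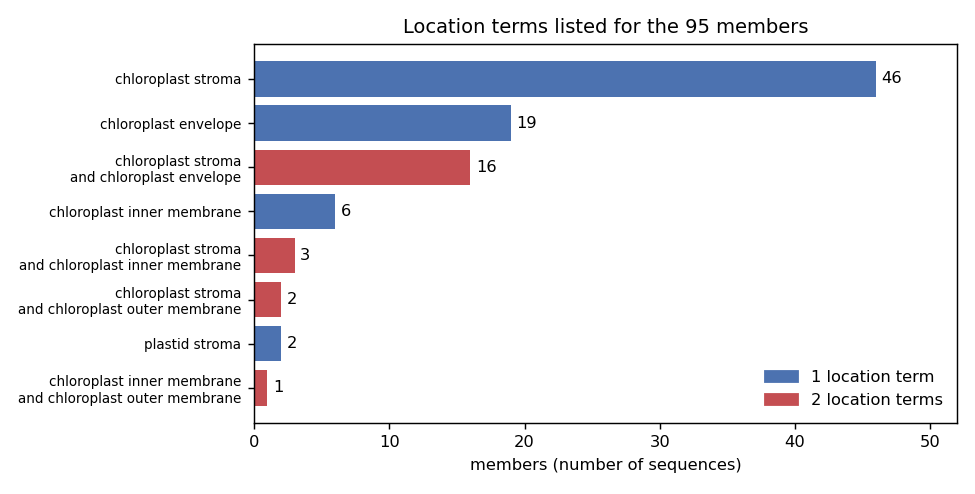
Number of members (horizontal axis) for each combination of location terms (vertical axis), in blue for 1 location term and in red for 2. Chloroplast stroma alone was listed for 46 of the 95 members, chloroplast envelope alone for 19 and both for 16.

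The 95 members carried 210 distinct terms beside their locations, of which 118 were found on a single member. Biological process terms were listed for 87 members, molecular function terms for 93 and cellular component terms other than those of the rule for 53. ATP binding was the most frequent term, on 32 members (33.7%) against 28.1% of all 6812 sequences, members included. Oxidation reduction followed with 17 members (17.9%, against 9.59% of all sequences) and metal ion binding with 15 (15.8%, against 10.9%). Pyridoxal phosphate binding, the mark of enzymes that use vitamin B6 to handle amino groups, was listed for 11 members (11.6%, against 2.01%). Protein binding went the other way, with 7 members (7.37%) against 15.6% of all sequences. All these shares are full counts of 1 table. No test was made of any difference between shares, since the sequences of 1 assembly are not replicates, and nothing is therefore shown to be particular to the members.

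Function was described with 20 lists of words matched to the term names, and 18 of them held at least 1 member. Stress responses and amino acid biosynthesis were the lists with the most members. In total, 53 members fell into 1 list, 28 into 2 or more and 14 into none. The 14 included 3 adenylate kinases, 3 members with ATP binding alone, and the only 2 plastid stroma members, the phosphoprotein phosphatases comp60083_c0_seq1_32 and comp693304_c0_seq1_4. In the plot of the 20 lists, the members stood at the right of all sequences for abiotic stress, amino acid biosynthesis and tetrapyrroles, and at the left for translation and RNA.

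**Figure D2:**
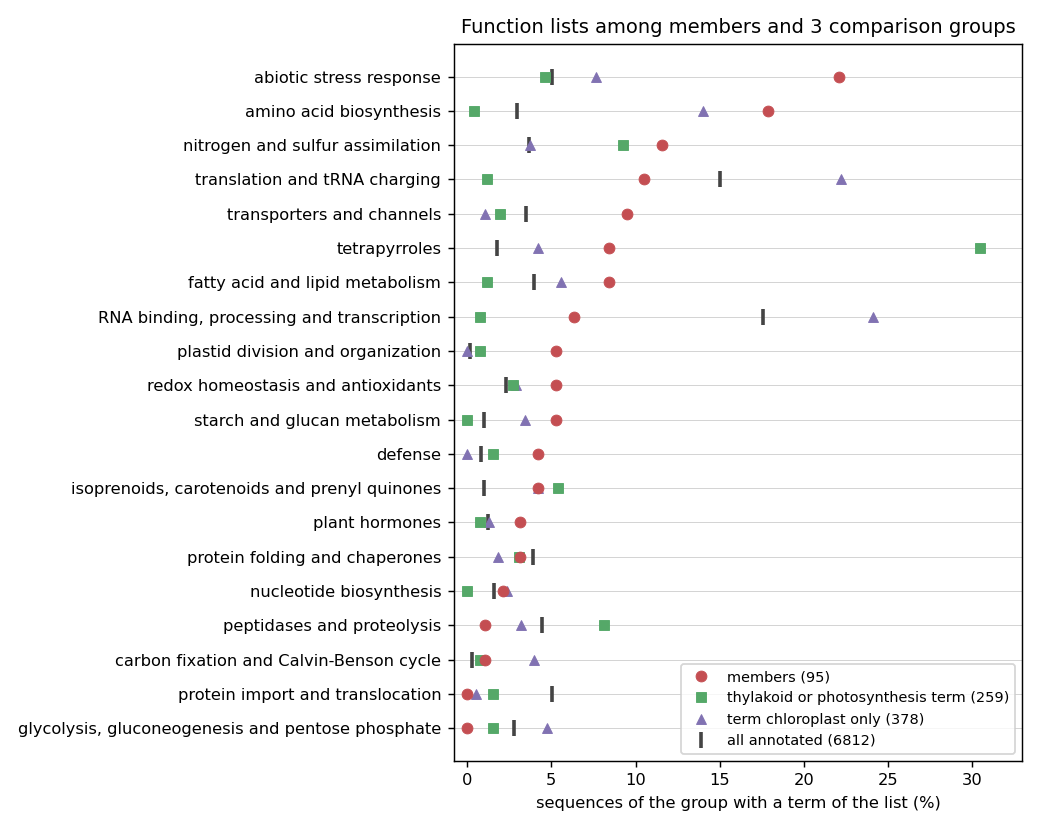
Share of sequences with a term of each function list (horizontal axis, %) for the 95 members (red circles), sequences with a thylakoid or photosynthesis term (green squares), sequences with the term chloroplast and none of these locations (purple triangles) and all annotated sequences (dark bars). Terms of the abiotic stress list, the general response to stress among them, were listed for 22.1% of the members and 5.04% of all sequences. RNA terms were listed for 6.32% of the members and 17.6% of all sequences.

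Amino acid biosynthesis terms were listed for 17 members (17.9%), against 14% of the chloroplast-term group, 0.386% of those with a thylakoid or photosynthesis term and 2.97% of all sequences. Stroma only accounted for 13 of the 17 members, both locations for 4 and envelope only for 0. The 17 members lay in 17 different Trinity components. A component here is a group of assembled sequences that Trinity, the assembler, gave the same comp and c numbers in the identifier. The 17 components are not all separate, since 3 of the members shared component number 65716.

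Nitrogen entered this list through ferredoxin-dependent glutamate synthase, the enzyme that makes glutamate from glutamine and 2-oxoglutarate with electrons from ferredoxin. This activity was listed for 6 sequences in the table, and 5 of them were members. The members comp65716_c0_seq1_22, comp65716_c2_seq1_25 and comp845654_c0_seq1_8 listed the same 7 terms with chloroplast stroma as the location. The members comp65716_c1_seq1_9 and comp812752_c0_seq1_8 shared a longer set of 15 terms, which added chloroplast envelope, mitochondrion, apoplast, photorespiration and response to light stimulus. The 3 members of component number 65716 thus carried 2 different sets of terms. The other glutamate synthase sequence listed no cellular component.

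Sulfur entered through cysteine synthase, which joins sulfide to an activated serine. It was listed for 10 sequences, of which 5 were members. Of these, comp32444_c0_seq1_21, comp597685_c0_seq1_2, comp60687_c0_seq1_12 and comp623779_c0_seq1_6 shared 1 set of 6 terms, chloroplast stroma and chromoplast among them, although they lay in 4 components. The fifth, comp1400609_c0_seq1_6, listed 10 terms, with chloroplast envelope, mitochondrion, apoplast and response to cadmium ion in addition. Of the 5 cysteine synthase sequences that were not members, 4 listed cytosol or cytoplasm.

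The aspartate family began with comp60760_c0_seq1_62, annotated as both aspartate kinase, which opens the route to lysine, threonine and methionine, and homoserine dehydrogenase, which acts after the branch to lysine. Aspartate kinase was listed for 6 sequences, and the 5 that were not members listed the general term chloroplast. L,L-diaminopimelate aminotransferase, which takes lysine synthesis through a direct transamination, was listed for 2 sequences, comp1219040_c0_seq1_1 and comp65286_c0_seq1_9, both members. Both also listed a term for SA-mediated signaling in systemic acquired resistance, a term found on 3 sequences in the table. Aspartate aminotransferase, which exchanges amino groups between aspartate and glutamate, was listed for 12 sequences. Of these, comp59216_c0_seq3_13 and comp1934869_c0_seq1_1 were members, and 7 of the other 10 listed a mitochondrial term.

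Aromatic amino acids were represented by comp61229_c0_seq1_22, annotated as the shikimate pathway enzymes 3-dehydroquinate dehydratase and shikimate 5-dehydrogenase, and by comp57355_c0_seq1_32, annotated as prephenate and arogenate dehydratase, which lead to phenylalanine. 3-dehydroquinate dehydratase, prephenate dehydratase and arogenate dehydratase were each listed for 1 sequence in the table. Leucine was represented by comp64762_c0_seq2_10, annotated as 3-isopropylmalate dehydratase, and comp50233_c0_seq1_28, annotated as 3-isopropylmalate dehydrogenase. The dehydrogenase had no other sequence in the table, while the dehydratase had 1. The first enzyme of the branch, 2-isopropylmalate synthase, had 1 sequence, which was not a member and listed no cellular component.

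The nitrogen and sulfur list held 11 members (11.6%, against 3.67% of all sequences). Its words also matched iron-sulfur cluster terms, such as 4 iron, 4 sulfur cluster binding on 111 sequences in the table. These shares are therefore not shares of nitrogen and sulfur assimilation alone. The 5 cysteine synthase members were not in the list. Besides the 5 glutamate synthase members it held 5 members with iron-sulfur cluster assembly, the process that builds the cofactors of ferredoxin-type proteins, and the 3-isopropylmalate dehydratase through its iron-sulfur cluster. The assembly members were comp54182_c0_seq2_3 and comp54182_c0_seq3_3 of 1 component, comp62434_c0_seq3_3, comp42904_c0_seq1_8 and comp62924_c0_seq1_19. All of these 5 were stroma only. In the table as a whole, 31 sequences listed iron-sulfur cluster assembly.

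Starch and glucan terms were listed for 5 members (5.26%, against 0.969% of all sequences), each a different enzyme. They were phosphoglucomutase (comp61909_c0_seq3_12), glucose-1-phosphate adenylyltransferase, which makes ADP-glucose (comp54308_c0_seq1_15), starch synthase, which lengthens the chains (comp63615_c1_seq1_27), isoamylase, a debranching enzyme (comp64463_c1_seq1_39), and alpha-glucan, water dikinase, which phosphorylates the starch surface before breakdown (comp57468_c0_seq1_7). Of 6 steps of starch metabolism, 5 thus had a member, and the branching enzyme had none. The 6 steps were listed 28 times in the table, 5 times on members and 13 times on other sequences with the term chloroplast. Starch synthase contributed 12 of these sequences, of which 1 was a member and 8 others listed chloroplast.

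The methylerythritol phosphate pathway makes the isopentenyl diphosphate from which carotenoids such as astaxanthin are built. Of its 7 steps, 3 had a member. 1-deoxy-D-xylulose-5-phosphate reductoisomerase (comp61994_c0_seq1_31), which commits the substrate to the pathway, and the transferase of the next step, which adds a cytidyl group (comp60325_c2_seq1_8), had no other sequence in the table. The cyclodiphosphate synthase of the fifth step had 2 sequences, the member comp807866_c0_seq1_5 and 1 with the term chloroplast. Sequences for the other 4 steps were in the table without a stroma or envelope term. One of the 2 members with a term for carotenoid biosynthesis was comp60901_c1_seq1_30, annotated as phytoene dehydrogenase, an enzyme that desaturates the colourless carotenoid phytoene. It was the only sequence with that activity in the table and listed chloroplast envelope and chromoplast. Terms for isoprenoids, carotenoids and prenyl quinones were listed for 4 members (4.21%), near the 4.23% of the chloroplast-term group. They were listed for 5.41% of the sequences with a thylakoid or photosynthesis term and 0.984% of all sequences.

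Tetrapyrrole terms were listed for 8 members (8.42%), against 30.5% of the sequences with a thylakoid or photosynthesis term and 1.76% of all sequences. With the 39 sequences left out by the rule counted as well, the share was 12.7%. Of 8 steps that lead to protoporphyrin, the common precursor of heme and chlorophyll, 4 had a member. Glutamate-1-semialdehyde 2,1-aminomutase, which forms aminolevulinate (comp1006273_c0_seq1_1), hydroxymethylbilane synthase (comp1013704_c0_seq1_5) and uroporphyrinogen decarboxylase (comp58915_c0_seq1_10) listed both stroma and envelope. Coproporphyrinogen oxidase (comp59605_c1_seq1_15) listed chloroplast stroma. The 8 steps were listed 25 times, 4 times on members and 14 times on other sequences with the term chloroplast. The remaining tetrapyrrole members were the cyclodiphosphate synthase of the carotenoid precursors, through a chlorophyll term, and 3 members with regulation of chlorophyll biosynthesis that were ATPases with iron transport terms.

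**Figure D3:**
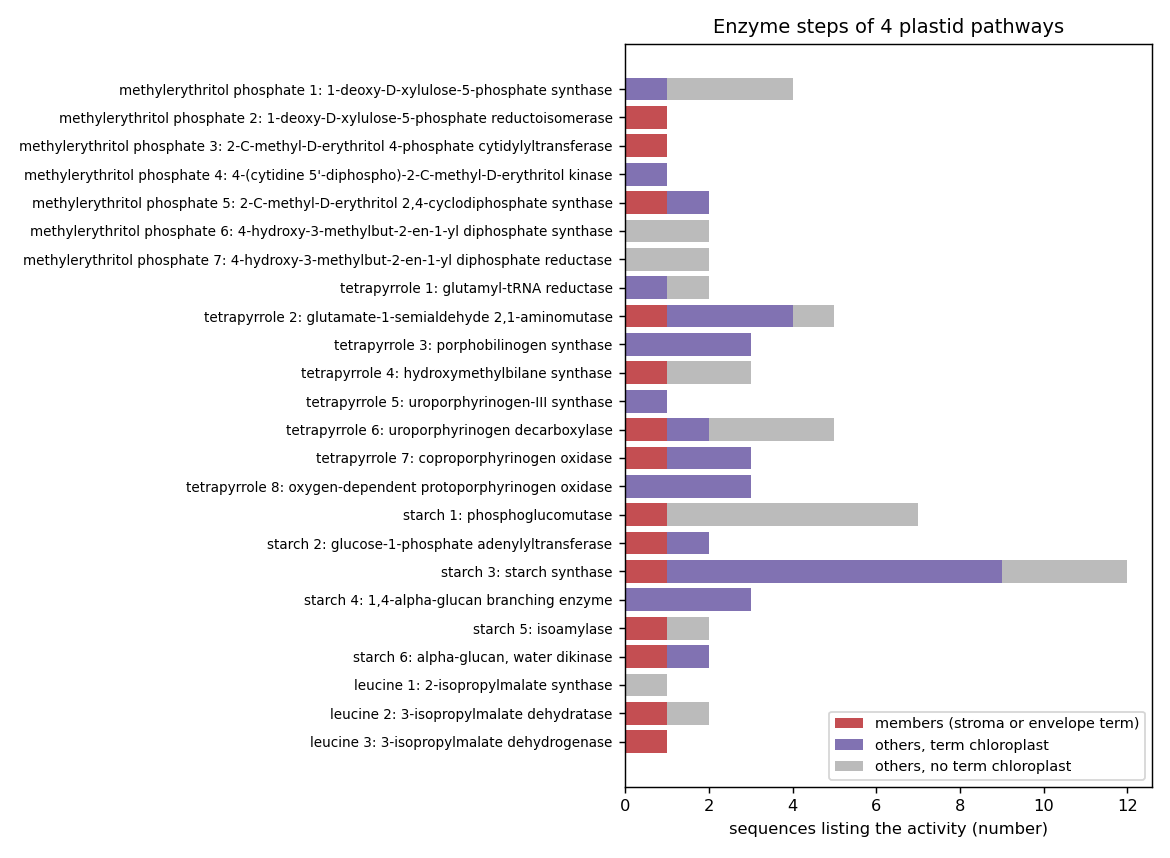
Number of sequences listing each enzyme activity (horizontal axis) for 24 steps of 4 plastid pathways (vertical axis), divided into members (red), other sequences with the term chloroplast (purple) and other sequences without it (grey). A member was found for 3 of 7 methylerythritol phosphate steps, 4 of 8 tetrapyrrole steps, 5 of 6 starch steps and 2 of 3 leucine steps.

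Fatty acid and lipid terms were listed for 8 members (8.42%, against 3.96% of all sequences). Acetyl-CoA carboxylase, which makes the malonyl-CoA for fatty acid synthesis, was listed for 4 members. Of these, comp65437_c1_seq2_16, comp65437_c1_seq5_16 and comp65437_c1_seq6_16 were sequences of 1 component with 1 set of 6 terms that joined chloroplast stroma to the inner membrane. The fourth, comp60194_c0_seq1_32, listed chloroplast stroma alone. All 4 listed the acetyl-CoA carboxylase complex, and this term was found on no other sequence. Of the 17 acetyl-CoA carboxylase sequences that were not members, 15 listed cytosol or cytoplasm. The condensing enzyme 3-oxoacyl-ACP synthase (comp60740_c0_seq1_14) listed stroma and envelope. The oxidoreductase comp58967_c1_seq1_29 listed fatty acid biosynthesis, photoinhibition and the inner membrane.

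The stroma members with other roles were fewer. Carbon fixation terms, the textbook activity of the stroma, were listed for 1 member (1.05%), the fructose 1,6-bisphosphate 1-phosphatase comp59419_c0_seq2_13. They were listed for 20 of all sequences (0.294%), 15 of which were in the chloroplast-term group (3.97% of that group). Glycolysis, gluconeogenesis and pentose phosphate terms were listed for 0 members and 188 of all sequences (2.76%). Nucleotide biosynthesis terms were listed for 2 members (2.11%, against 1.56% of all sequences), both for purine synthesis. These were comp65605_c0_seq2_31 and comp65605_c1_seq1_11, the only phosphoribosylformylglycinamidine synthase sequences, both of which also listed mitochondrion. Riboflavin synthesis was represented by comp59774_c0_seq1_6, which listed lumazine synthase, riboflavin synthase and a JA-mediated signaling term found on 3 sequences. With the 2 lysine enzymes, this made 3 members (3.16%) with a plant hormone term, against 1.26% of all sequences.

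Redox terms were listed for 5 members (5.26%, against 2.32% of all sequences). Glutathione reductase (comp64275_c0_seq1_44), a glutathione peroxidase (comp1302376_c0_seq1_5), a peroxiredoxin (comp56850_c0_seq1_6) and an enzyme activator with an electron transport term (comp59222_c1_seq9_6) were stroma only. Thioredoxin reductase (comp58844_c0_seq1_9), which keeps thioredoxins reduced, listed chloroplast envelope together with mitochondrion and cytosol. Protein folding terms were listed for 3 members (3.16%, against 3.92% of all sequences), comp63010_c0_seq1_4, comp63010_c1_seq2_18 and the chaperone comp64354_c0_seq1_37. Protein import terms were listed for 0 members, against 343 of all sequences (5.04%), and 3 of the 39 sequences left out for a thylakoid or photosynthesis term listed one. The metalloendopeptidase comp65156_c0_seq2_25, with stroma and envelope, was the only member with a peptidase term (1.05%), against 301 of all sequences (4.42%). This count depends on the rule, since 4 of the 39 sequences left out listed a peptidase term and the share with them was 3.73%.

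Translation terms were listed for 10 members (10.5%), against 22.2% of the chloroplast-term group and 15% of all sequences. Of these 10 members, 5 were sequences of component comp65056_c1, the component with the most members, and were annotated as a GTP-binding translation initiation factor on the chloroplast envelope. These 5 had identical terms and came from 1 component, so they are not independent of each other. All GTP binding among the members came from them. The plastid ribosomal protein comp54321_c0_seq2_21 and phenylalanine-tRNA ligase comp60798_c0_seq1_10, which charges the tRNA of phenylalanine, listed chloroplast stroma. RNA terms were listed for 6 members (6.32%), against 24.1% of the chloroplast-term group and 17.6% of all sequences.

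Transporter terms were listed for 9 members (9.47%), all envelope only, against 1.06% of the chloroplast-term group and 3.51% of all sequences. The inner membrane carried 5 of them, among them a phosphate transporter (comp64738_c0_seq1_49), a proton transporter (comp29701_c0_seq3_28) and 2 transporters with identical terms for sodium transport (comp64603_c0_seq1_21 and comp65145_c2_seq1_18). The lipid transporter comp56210_c0_seq2_32, the only member with inner and outer membrane, completed them. Of the 10 inner membrane members, 6 listed integral to membrane, 3 were the acetyl-CoA carboxylase sequences of comp65437_c1, and 1 was a methyltransferase (comp60731_c0_seq1_31).

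The other 4 transporter members listed an ATPase activity and chloroplast envelope. The members comp58891_c0_seq2_51, comp58891_c0_seq3_52 and comp63888_c0_seq1_16 had 1 set of 15 terms, with iron ion transport, cellular iron ion homeostasis, chloroplast organization, response to lead ion, regulation of chlorophyll biosynthesis and mitochondrial inner membrane. Response to lead ion was found on these 3 sequences and on no other in the table. The member comp1579863_c0_seq1_4 listed cadmium transport and 14 terms in all, with systemic acquired resistance and plasma membrane among them. The outer membrane was listed for the lipid transporter and for comp58731_c0_seq3_21 and comp58731_c0_seq4_23, which listed integral to membrane and no activity.

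**Figure D4:**
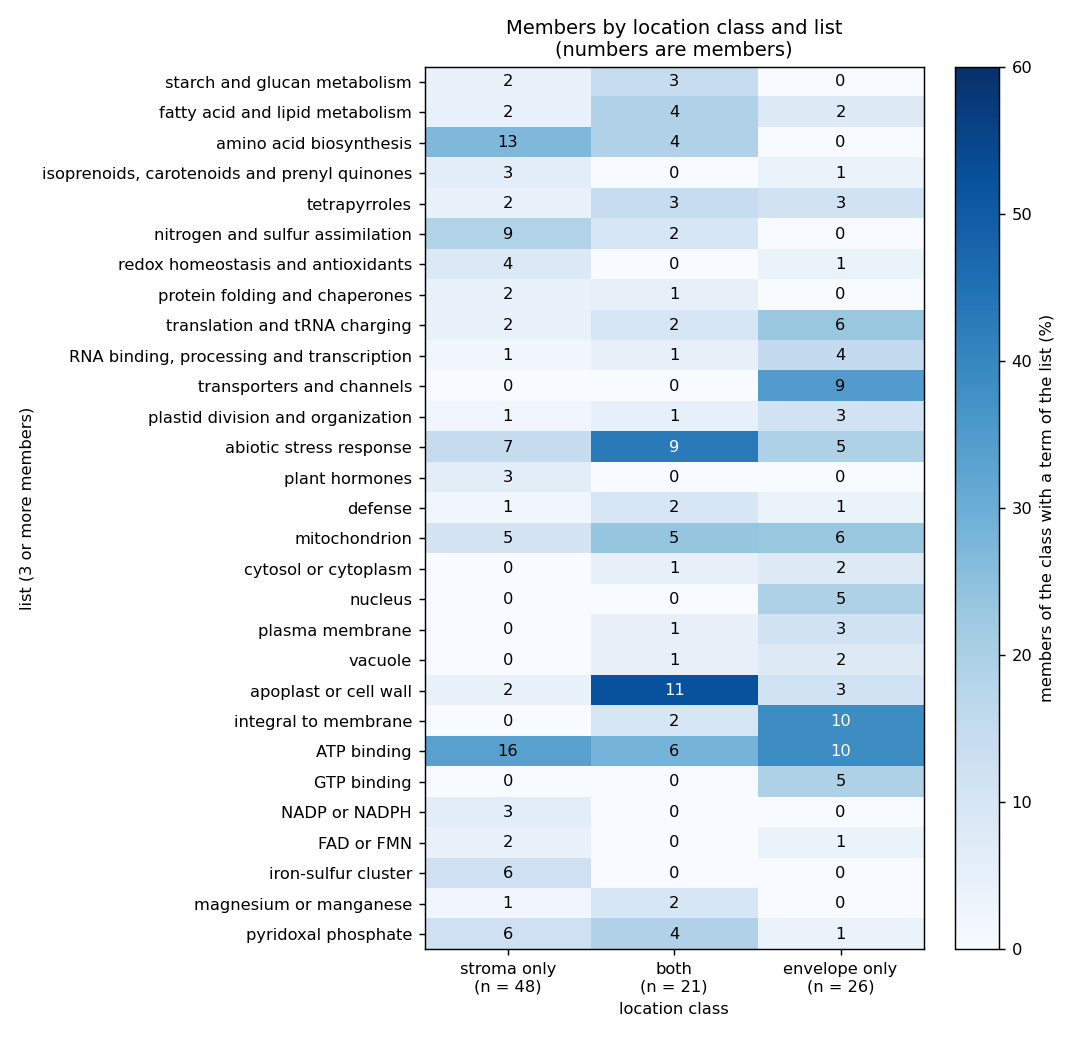
Members with a term of each list (rows, lists with 3 or more members) in the classes stroma only, both and envelope only (columns); numbers are members and the colour is their share of the class (%). All 9 transporters were envelope only, 13 of 17 amino acid members were stroma only, and 11 of the 21 members with both locations listed an apoplast or cell wall term.

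Stress terms were listed for 21 members (22.1%), against 7.67% of the chloroplast-term group, 4.63% of those with a thylakoid or photosynthesis term and 5.04% of all sequences. The words of this list left out cold acclimation (comp57468_c0_seq1_7) and response to oxidative stress (comp1302376_c0_seq1_5), each listed for 1 member. They took in the general term response to stress, which names no abiotic stimulus, listed for 4 members and 118 sequences. For these 4 members it was the only term of the list. Response to cadmium ion was the most frequent, with 10 members (10.5%, against 1.53% of all sequences). Response to cold was listed for 6 members and 20 sequences in the table. All 6 members with response to cold also listed stromule and apoplast. Stromules are thin tubes that extend from the chloroplast surface, and the apoplast is the space outside the plasma membrane. The member with cold acclimation listed neither stromule nor apoplast. In the table, all 9 sequences with stromule listed response to cold, and 8 of them listed apoplast. The 6 members with response to cold were the 2 aspartate aminotransferases, phosphoglucomutase, the peroxiredoxin, the chaperone comp64354_c0_seq1_37 and comp64562_c0_seq8_4.

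The last of these, comp64562_c0_seq8_4, had the most terms of all members, with 16. It listed catalytic activity and coenzyme binding, rRNA processing, circadian rhythm, chloroplast organization, and vacuole, peroxisome, ribosome, plastoglobule, stromule and apoplast as further components. Chloroplast organization, a term for the shaping of the chloroplast, was listed for 5 sequences in the table, all of them members. These were comp64562_c0_seq8_4, the 3 ATPases with iron transport terms and the iron-sulfur assembly member comp42904_c0_seq1_8.

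Apoplast was listed for 14 members (14.7%, against 0.514% of all sequences), and these were 40% of the 35 sequences with that term. Of the 14, 11 listed both stroma and envelope, 2 were stroma only and 1 was envelope only. Apoplast was also listed for 3 of the 39 sequences left out by the rule. Apoplast or cell wall terms were listed for 16.8% of the members, 12.8% of those left out and 7.14% of the chloroplast-term group. They were listed for 1.93% of the sequences with a thylakoid or photosynthesis term and 2.91% of all sequences. The members with apoplast had a median of 10 terms and the members without it a median of 5. A member with more terms has more chances to list any given term, and the part of this in the apoplast count was not tested. Chromoplast, the carotenoid-storing plastid, was listed for 6 members of 9 sequences, of which 5 were the cysteine synthases and 1 the phytoene dehydrogenase.

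**Figure D5:**
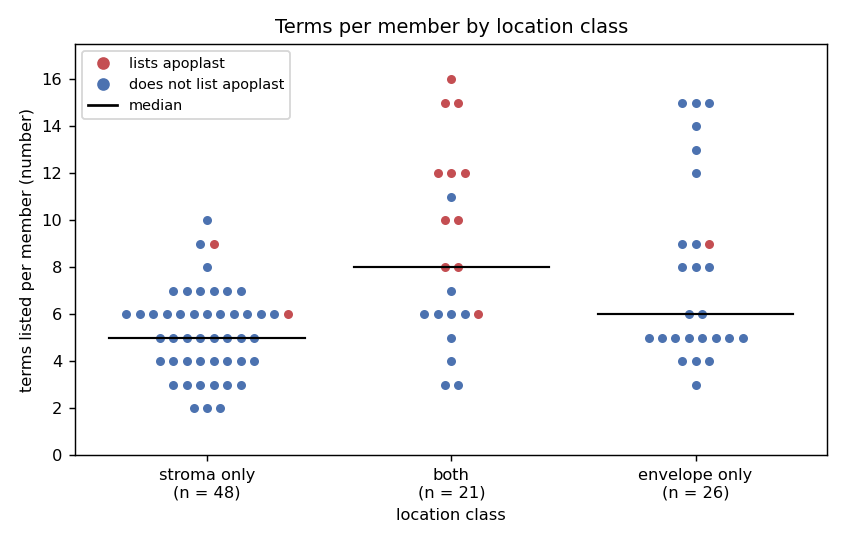
Number of terms listed per member (vertical axis) in the classes stroma only, both and envelope only; each point is 1 member, red where it listed apoplast and blue where it did not, and the bar is the class median. The medians were 5, 8 and 6 terms, and the 14 members with apoplast lay at 6 terms or more. The counts include the location terms, 2 on each member with both locations and 1 on each stroma only member.

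The members had a median of 6 terms (quartiles 4.5 and 8, range 2 to 16), against 7 for sequences with a thylakoid or photosynthesis term and 5 for all sequences. At least 10 terms were listed for 16 members (16.8%), against 9.94% of all sequences. These 16 comprised 1 of 48 stroma only members, 9 of 21 with both locations and 6 of 26 envelope only members. The counts include the location terms, 2 on each member with both locations and 1 on each stroma only member. Part of the difference between these classes thus follows from their definition. By the rule, every member lists at least 1 location term, which most other sequences do not. At the lower end, 12 members listed 3 terms or fewer, among them comp48319_c0_seq1_13, comp58988_c0_seq4_10 and comp61616_c1_seq1_20, which listed ATP binding and chloroplast stroma only.

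Another compartment was listed for 31 members (32.6%), and for 11 of these more than 1 other compartment. The share was 14.6% among stroma only members, 57.1% among those with both locations and 46.2% among envelope only members. The same count was not made over all sequences, so the 32.6% has no share to stand against. Of the 21 members with both locations, 11 listed apoplast. The classes also differed in terms per member, with medians of 5, 8 and 6, and the part of this in the shares was not tested. A mitochondrial component was listed for 16 members (16.8%), and terms of the mitochondrion list for 10.6% of the chloroplast-term group and 11.3% of all sequences. The nucleus list was found on 5 members, all envelope only (5.26%, against 17.7% of all sequences), and the share was 8.21% with the sequences left out by the rule.

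Members also shared whole sets of terms. The 95 members had 66 distinct sets, and 18 sets occurred on 2 or more members and covered 47 of them (49.5%), against 68.8% of all sequences in repeated sets. Of these 18 sets, 4 lay within 1 Trinity component and 14 were spread over several. Among the 14, the set of comp63010 and the set of comp65605 each lay in 2 components (c0 and c1) of 1 component number. The adenylate kinases comp1442540_c0_seq1_3, comp62325_c4_seq1_19 and comp713596_c0_seq1_4, which balance the adenine nucleotides, are an example of 1 set of 4 terms in 3 components. The 95 members lay in 85 components, which carried 81 component numbers. Of the 85 components, 79 held 1 member and 6 held the other 16 members.

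The identifiers also carry the component number and the number of the reading frame within the sequence. Component numbers above 100000 were found for 18 members (18.9%), against 28.2% of sequences with a thylakoid or photosynthesis term, 29.9% of the chloroplast-term group and 50.3% of all sequences. Within the members, the share was 18.8% for stroma only, 23.8% for both and 15.4% for envelope only. Of the amino acid members, 6 of 17 had such a number, and of the translation members 0 of 10. The 10 translation members lay in only 6 components, 5 of them in comp65056_c1, and sequences of 1 component share its number. Other lists also had none, such as starch and glucan terms with 0 of 5. The reading frame number had a median of 15 among the members, against 6 among all sequences. The median was 10 for stroma only, 13 for both and 30.5 for envelope only. This number reached 62 among the members and 197 among all sequences, so it is a running number of the frames found in a sequence. Sequence lengths are not listed, and their part in these medians was not tested.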

How the data were processed

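RNA of the 7 libraries was sequenced as paired-end reads by the authors, who built 1 assembly of them with Trinity. GetORF gave the reading frames, and GoPipe assigned GO terms from Blastp matches to protein references. The deposited table has 39529 lines and 4 text columns (sequence identifier, GO identifier, term name and domain letter) and no measured unit. It holds 0 columns per sample, so the planned listing of values per sample was not run, and depth and expression are not analysed here.

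Words in term names identified the members. Each was counted once per list in 20 function lists, 10 compartment lists and 10 cofactor lists, beside the same count over all sequences. Named were the terms of the rule, the 15 most frequent other terms, the leading terms and members of each list, the members with the most terms, and components with 3 or more members. The members and lists were chosen with earlier results of these data known. The pathway steps, pairs of terms and sets of terms were chosen after seeing the data, as were members named beyond the rule. The words of a list are not complete: 3 iron, 4 sulfur cluster binding is outside the iron-sulfur cofactor list.

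Alternatives were a count per Trinity component, keeping the thylakoid and photosynthesis sequences, stroma or envelope terms alone, members with 5 or more terms, and a component boundary of 200000. A count within 1.5 times of the reported one was taken as the same. So was a share within the 95% Wilson interval of the reported share. That interval treats the members as independent draws, which sequences of the same component are not, and covers no other error. The counting was tested on simulated data. Of the identifiers, 0 matched the RefSeq gene table of 30548 genes, so no sequence is shown. Python 3.11.15 made the counts, with medians from NumPy 2.4.6 and intervals from SciPy 1.17.1, and Matplotlib 3.10.9 drew the figures.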

Additional observations from a re-analysis of the deposited data

How the results depend on the processing

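Of 142 values recomputed under an alternative, 14 counts and 128 shares, 139 stayed within 1.5 times of the reported count or within the 95% Wilson interval of the reported share, and 3 did not. With envelope and membrane terms alone, 47 sequences were members, and with stroma terms alone the count stayed within 1.5 times of 95. Among members with 5 or more terms, carbon fixation terms were listed for 0%, against 1.05% of all members, because the single member with them lists fewer terms. Counted per Trinity component, GTP binding fell to 1.18%, since the 5 sequences that list it share 1 component, against 5.26% per sequence. Those intervals are wide at these counts, and 11 values in all moved by more than 1.5 times. The other 8 came from keeping the thylakoid and photosynthesis sequences, which gave 12.7% for tetrapyrroles (8.42% as reported), 3.73% for peptidases (1.05%), 2.24% for protein import (0%), 6.72% for cytosol or cytoplasm (3.16%), 8.21% for the nucleus (5.26%), 4.48% for plastoglobule or nucleoid (1.05%), and 5.22% each for NADP and for FAD or FMN (3.16% each). The count per component gave 85 in place of 95 members. Every alternative reused sequences of the 95 members, so part of the agreement was fixed in advance. The alternatives for the counts per location term, 10 values, were chosen after seeing the data. No paired analysis was possible because each condition had 1 library and the table holds no values per library. Annotation by similarity and the number of terms per sequence limit every share given here.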

Other observations

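Some envelope members were annotated with machinery of another compartment. The member comp819178_c0_seq1_6 listed the V1 domain of the V-type proton ATPase, which acidifies vacuoles, together with the vacuolar membrane, the plasma membrane and the cell wall. The member comp60688_c3_seq4_24 listed the cytosolic large ribosomal subunit, the nucleolus, the vacuole and the plasma membrane. The helicases comp63931_c0_seq2_48, comp63931_c0_seq4_55 and comp1026505_c0_seq1_3 shared 1 set of 8 terms with nucleus, mRNA processing and RNA splicing. The helicase comp64512_c0_seq1_27 listed nucleus, DNA repair and chromatin modification. Glycine dehydrogenase, the decarboxylating subunit of the mitochondrial glycine cleavage system, was listed for 10 sequences, of which the member comp851702_c0_seq1_6 listed chloroplast envelope, mitochondrion and apoplast, and 6 of the other 9 listed a mitochondrial term.

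Terms named for the organs of land plants, which this unicellular alga does not have, were listed for 6 members (6.32%), against 1.67% of all sequences. Of these 6 members, 5 were envelope only. The words used were not complete. They left out microgametogenesis, listed for 2 stroma only members, and adaxial/abaxial pattern formation, listed for 1 envelope only member. Terms named for the animal body were listed for 0 members, against 248 sequences in the table.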
